A study of Mus musculus with 20 samples.

Results

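The mammalian circadian clock was followed through 10 genes, Clock, Npas2, Per1, Per2, Per3, Cry1, Nr1d1, Nr1d2, Dbp and Bhlhe40, taken by their gene names from a table of 56748 mouse genes counted in liver RNA. The 20 RNA-seq libraries came from livers of mice fasted for 24 h and fall into 5 genotype groups of 4 libraries each. Cpt2PparaDKO livers lacked Cpt2 and Ppara, TKO livers lacked Cpt1a, Cpt1b and Cpt2, Cpt2KO livers lacked Cpt2, Cpt1DKO livers lacked Cpt1a and Cpt1b, and Control livers came from littermates with floxed Cpt1a, Cpt1b and Cpt2 alleles. The Control label names no floxed Ppara allele. The labels call every deletion liver-specific without naming the Cre line, and they give no age, no sex and no hour of the day at which the livers were collected. The labels also do not say that each library is a separate animal, so p-values measure the spread between libraries. A difference in collection hour between groups, if there was one, cannot be told apart from genotype here. Carnitine palmitoyltransferases 1 and 2, encoded by Cpt1a, Cpt1b and Cpt2, move long-chain fatty acids into mitochondria, and the nuclear receptor PPARα (Ppara) switches on fatty acid oxidation genes in fasting. The design asks what loss of Cpt1a with Cpt1b, of Cpt2, of all 3, or of Cpt2 with Ppara does to the fasted liver transcriptome.

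The clock is a transcriptional feedback loop that runs in nearly every cell. CLOCK, or its relative NPAS2, pairs with BMAL1 (Arntl) and activates genes through E-boxes, among them the Per and Cry genes, whose proteins return to the nucleus and repress CLOCK and BMAL1. The receptors REV-ERBα and REV-ERBβ, encoded by Nr1d1 and Nr1d2, repress Arntl in a connected loop, DBP carries the rhythm onward by activating genes through D-boxes, and BHLHE40 (DEC1) binds E-boxes as a repressor. In liver these factors give daily rhythm to genes of bile acid, lipid and glucose metabolism, and fasting and feeding can shift their phase.

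Promoter sequence, the 250 bases before an annotated start, was taken from RefSeq on build GRCm38.p6 for 8 of the 10 genes, with 11 start sites in all; Per2 and Bhlhe40 were not in that table. The E-box CACGTG stood in 2 of the 8 genes, Per1 (at 1 of its 2 start sites) and Cry1 (at its 1 start site). It stood in 6.02% of 32851 promoters of the same length. This share and those below count promoters, while the members are counted as genes, which can have more than 1 start site. The D-box was searched only as TTATGTAA, which stood in Per3 alone among the 8, at 2 places, and in 0.819% of all promoters. Variant forms, such as ttatgcaa in the Per1 sequence printed below, were not searched and are not marked. Searched on both strands, the variant E-box CACGTT (3.85% of all promoters) was found in Cry1 and Nr1d1, and AGGTCA, the core that ROR and REV-ERB receptors bind (14% of all promoters), in Clock, Per1 and Nr1d2. The promoters with an E-box or a D-box are printed because these are the elements that the clock factors read, with the E-box and D-box matches in capitals and each sequence running 5′ to 3′ on the gene's strand.
Per1, start site 1, chr11:69098699-69098948, plus strand: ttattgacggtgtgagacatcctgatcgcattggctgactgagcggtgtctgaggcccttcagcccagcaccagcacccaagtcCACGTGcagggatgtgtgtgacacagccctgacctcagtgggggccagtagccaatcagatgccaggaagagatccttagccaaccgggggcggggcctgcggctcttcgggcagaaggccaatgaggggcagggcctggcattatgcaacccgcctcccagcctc
Per3, chr4:151044666-151044915, minus strand: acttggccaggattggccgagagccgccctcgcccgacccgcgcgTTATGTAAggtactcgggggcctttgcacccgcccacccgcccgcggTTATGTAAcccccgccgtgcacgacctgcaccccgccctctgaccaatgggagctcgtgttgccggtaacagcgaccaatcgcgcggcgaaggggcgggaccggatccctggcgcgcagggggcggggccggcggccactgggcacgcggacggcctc
Cry1, chr10:85185055-85185304, minus strand: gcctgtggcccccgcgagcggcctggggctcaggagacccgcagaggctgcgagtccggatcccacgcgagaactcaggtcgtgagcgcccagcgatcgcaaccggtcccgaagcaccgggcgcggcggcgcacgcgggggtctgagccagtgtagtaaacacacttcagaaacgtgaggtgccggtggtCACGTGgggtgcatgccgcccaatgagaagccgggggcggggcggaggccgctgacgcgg
The Per1 E-box began 166 bases before the start, the Cry1 E-box 60 bases before it, and the Per3 D-boxes 205 and 158 bases before it. A match of letters is a description of these windows and not a measured binding site.

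Total counts were 14129595 to 36452673 per library, and 15669 genes passed the filter on low counts. The targeted genes followed the labels in part. Cpt1a averaged 137 ± 12.7 CPM (counts scaled to library size) in TKO and 155 ± 12.2 CPM in Cpt1DKO livers, against 1038 ± 76.6 CPM in Control livers (SD, n = 4 each here and below). Cpt2 averaged 33.9 ± 4.86 CPM in Cpt2PparaDKO, 103 ± 11.7 CPM in TKO and 131 ± 23.6 CPM in Cpt2KO livers, against 249 ± 26.2 CPM in Control livers, and Ppara averaged 73.2 ± 13.0 CPM in Cpt2PparaDKO against 233 ± 46.1 CPM in Control livers. Cpt1b was near the detection floor and not lower where deleted, at 2.80 ± 0.308 CPM in TKO and 0.881 ± 0.217 CPM in Cpt1DKO against 0.543 ± 0.215 CPM in Control livers. All 6 hepatocyte markers (Alb, Apoa1, Ttr, Apob, Serpina1a and Cps1) had counts in every library. In 2 libraries, Cpt2PparaDKO replicate 4 and Cpt2KO replicate 3, Xist stood at 1266 and 981 CPM with at most 1 count of any of 4 Y-linked genes, a female pattern, while the other 18 libraries had a male pattern. For the clock genes named at the outset, calls that these 2 libraries changed are given with and without them.

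The clock genes differed widely in level. Per length, on the scale of the deposited FPKM averaged over the 20 libraries, Nr1d1 was the most abundant at 28.5 ± 9.25, followed by Nr1d2 at 24.6 ± 3.61, Dbp at 21.3 ± 8.53, Per1 at 17.4 ± 5.95 and Bhlhe40 at 16.2 ± 6.47. Per2 at 7.02 ± 2.78, Clock at 4.10 ± 0.779, Per3 at 4.10 ± 2.17 and Cry1 at 2.59 ± 1.30 were lower, and Npas2 was close to the floor at 0.0646 ± 0.0418 (SD over 20 libraries throughout). Each neighbour in this order lay within 1 SD of the next except Bhlhe40 and Per2, Per2 and Clock, and Cry1 and Npas2. Npas2 had 1 to 19 counts per library and did not pass the filter on low counts, so the tests below concern 9 of the 10 genes.

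Spread between libraries of one group also differed. The biological coefficient of variation was 0.462 for Cry1, 0.429 for Dbp and 0.411 for Per3, each above that of at least 88.9% of tested genes. It was 0.330 for Per1, 0.320 for Nr1d1, 0.289 for Per2 and 0.264 for Bhlhe40. Clock at 0.190 and Nr1d2 at 0.163 lay below 0.202, the median of all tested genes.

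**Figure D1:**
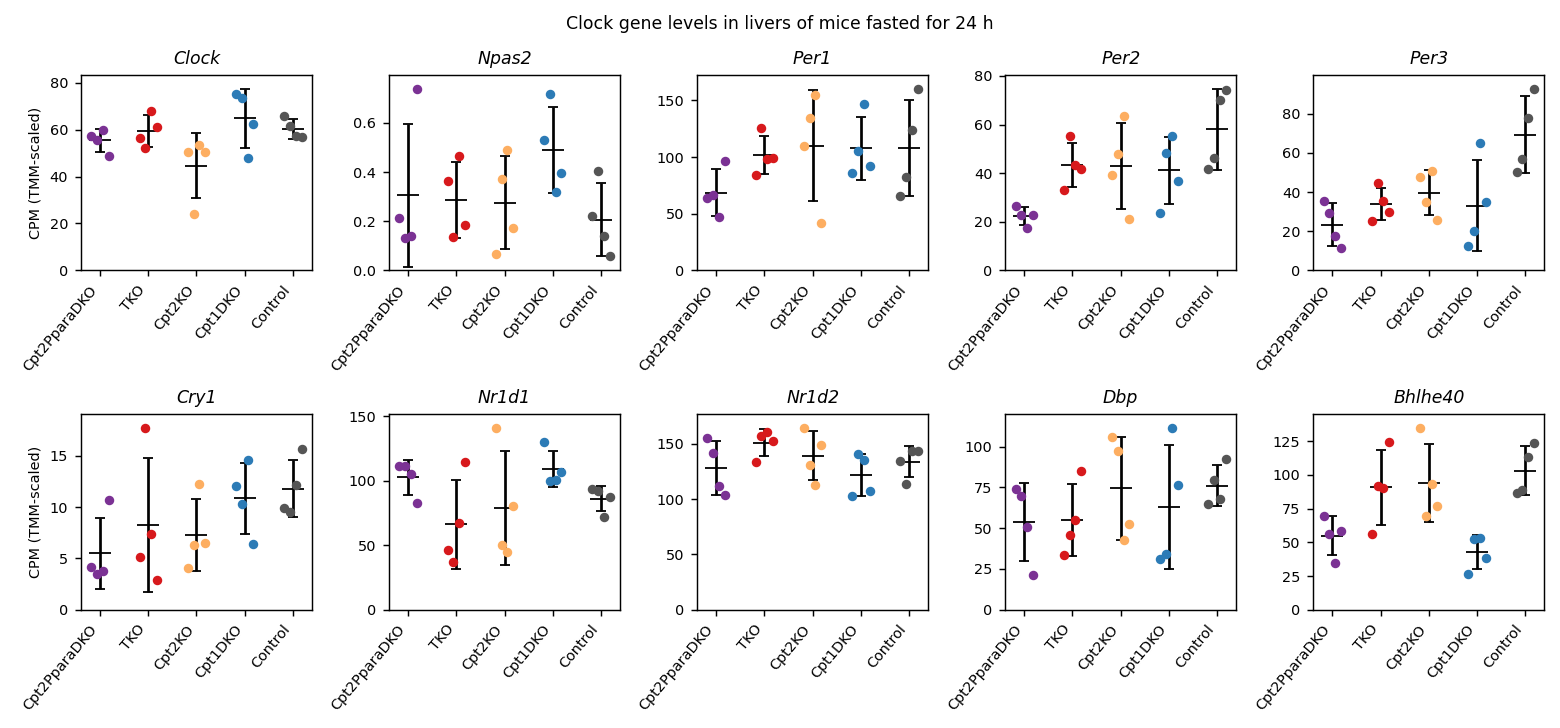
TMM-scaled CPM (linear axis from 0) of the 10 clock genes in each library, with one panel per gene; coloured points are libraries, and black bars are the group mean ± SD (n = 4). Per2, Per3 and Bhlhe40 sat lower in Cpt2PparaDKO than in Control livers with no overlap, and Bhlhe40 also sat lower in Cpt1DKO livers.

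Livers without Cpt2 and Ppara had 3 of the 9 tested clock genes below the level of Control livers. Per2 and Per3, period genes of the repressing arm, and Bhlhe40, the E-box repressor, fell, and none of the 9 tested genes rose. By edgeR's quasi-likelihood test with Benjamini-Hochberg adjustment over all 15669 genes, 3 of 9 passed an adjusted p of 0.05, all lower, against a background of 17.6% of all tested genes lower and 32.5% changed in either direction. The share of the clock genes, 33.3%, was therefore near the background over both directions. The median log2 fold change was -0.65 over the 9 genes and 0.00 over all tested genes. Fewer cells expressing a gene and less RNA of it per cell cannot be told apart in bulk liver.

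Per2, which couples the clock to metabolic receptors as well as repressing it, stood at 26.6, 22.9, 17.5 and 22.7 CPM in the 4 Cpt2PparaDKO libraries, against 41.7, 46.1, 70.3 and 74.2 CPM in the Control libraries. Every Cpt2PparaDKO library was below every Control library. Its log2 fold change was -1.37 ± 0.30 (SE, edgeR adjusted p = 0.00189). Per3, whose promoter holds the paired D-boxes printed above, stood at 35.3, 29.1, 17.6 and 11.4 CPM in Cpt2PparaDKO, against 49.98, 57.0, 77.7 and 92.5 CPM in Control livers. These groups did not overlap either, and the log2 fold change was -1.56 ± 0.43 (SE, edgeR adjusted p = 0.0108). Bhlhe40 stood at 69.8, 55.9, 35.0 and 58.3 CPM in Cpt2PparaDKO, against 86.3, 89.1, 113 and 124 CPM in Control livers. It fell by 0.91 ± 0.27 on the log2 scale (SE, edgeR adjusted p = 0.0132), again without overlap, and missed the threshold in the fit with no filter on low counts (adjusted p = 0.0613). The 3 genes were the only ones whose libraries did not overlap in this comparison, against 35.1% of all tested genes.

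Cry1, the cryptochrome with the E-box printed above, stood at 4.14, 3.43, 3.74 and 10.7 CPM in Cpt2PparaDKO, against 9.90, 9.52, 12.1 and 15.6 CPM in Control livers. The call depended on the fit and on 1 Cpt2PparaDKO library, replicate 4. With all libraries the log2 fold change was -1.10 ± 0.48 (SE, edgeR adjusted p = 0.0913), which passed by DESeq2's Wald test (-1.09, adjusted p = 0.0404) and with sex as a term in the edgeR fit (-1.59, adjusted p = 0.00777), and without replicate 4 it was -1.61 (adjusted p = 0.0223). That library is one of the 2 with a female pattern, and without both of them 4 clock genes passed, Cry1 (adjusted p = 0.0151), Per2 (0.00538), Per3 (0.0440) and Bhlhe40 (0.0403). Per1, the period gene that responds most directly to hormones and feeding signals, averaged 68.7 ± 20.7 CPM in Cpt2PparaDKO against 108 ± 42.4 CPM in Control livers and did not pass (log2 fold change -0.65 ± 0.34, edgeR adjusted p = 0.150).

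The remaining genes of the set did not pass in this comparison. Clock, the activator subunit, averaged 55.4 ± 4.90 CPM in Cpt2PparaDKO and 60.3 ± 4.30 CPM in Control livers. Nr1d1 averaged 103 ± 13.5 CPM in Cpt2PparaDKO and 86.2 ± 9.84 CPM in Control livers, and Nr1d2 128 ± 24.3 CPM in Cpt2PparaDKO and 134 ± 14.1 CPM in Control livers. Dbp averaged 53.8 ± 24.0 CPM in Cpt2PparaDKO and 76.0 ± 12.6 CPM in Control livers, and its lowest library of all 20, at 21.1 CPM, was Cpt2PparaDKO replicate 4. Hepatocyte markers moved in the same comparison: all 6 fell, and their summed level was 35353 to 40849 CPM in Cpt2PparaDKO against 82897 to 103348 CPM in Control livers. Of 6 stellate and matrix markers, 4 rose, with summed levels of 236 to 276 CPM in Cpt2PparaDKO against 175 to 208 CPM in Control livers. Of 7 macrophage markers 1 rose, Cd68, with summed levels of 342 to 394 CPM in Cpt2PparaDKO against 169 to 343 CPM in Control livers. Of 4 cholangiocyte markers 1 fell. The part of these markers in the clock-gene results was not tested.

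**Figure D2:**
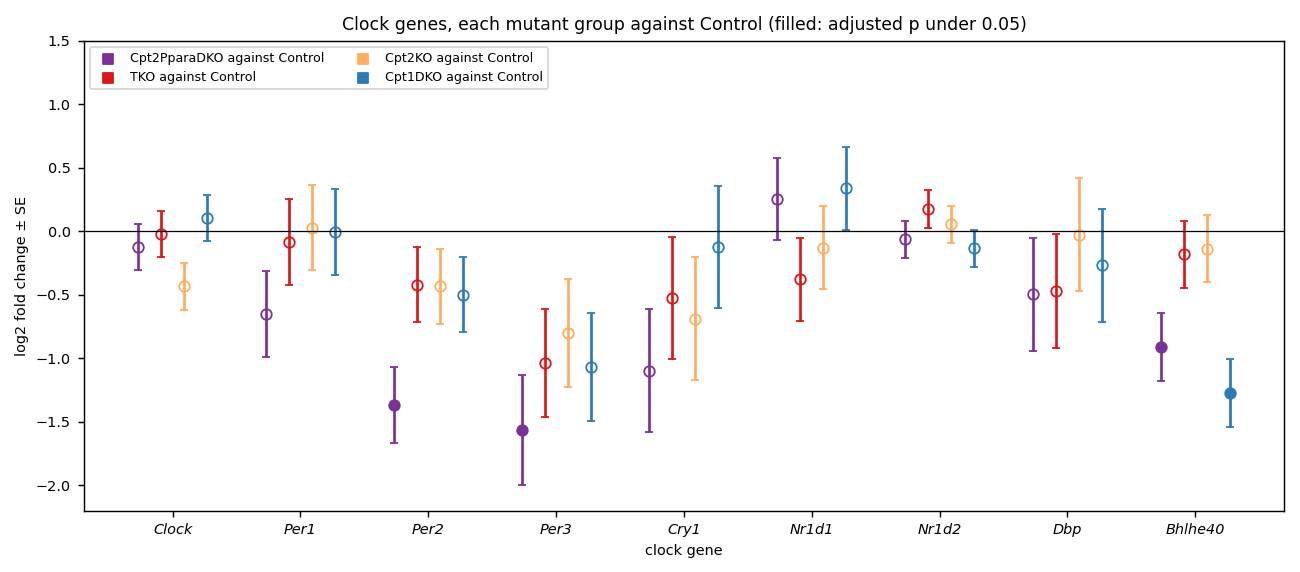
Log2 fold change (± SE) of the 9 tested clock genes in each mutant group against Control, from edgeR's fit over all 20 libraries; filled points have an adjusted p under 0.05. Only Per2, Per3 and Bhlhe40 in Cpt2PparaDKO and Bhlhe40 in Cpt1DKO are filled.

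Against livers that lacked Cpt2 alone, livers that lacked Cpt2 and Ppara had lower Per2 and Bhlhe40. Cpt2 RNA was itself lower in Cpt2PparaDKO than in Cpt2KO livers (log2 fold change -1.95, edgeR adjusted p = 1.39e-07). Loss of Ppara and the lower Cpt2 RNA therefore cannot be told apart in this comparison, and Cpt2 function was not measured. Per2 in Cpt2KO livers stood at 39.1, 47.7, 63.6 and 21.2 CPM, and the Cpt2PparaDKO libraries, at 17.5 to 26.6 CPM, overlapped with the lowest of them. The log2 fold change of Cpt2PparaDKO against Cpt2KO was -0.94 ± 0.30 for Per2 (SE, edgeR adjusted p = 0.0278) and -0.77 ± 0.26 for Bhlhe40 (SE, edgeR adjusted p = 0.0394). The 2 of 9 genes, 22.2%, were both lower, against 12.2% of all tested genes lower and 24.4% in either direction, and the median log2 fold change was -0.47 over the 9 genes and 0.01 over all. Bhlhe40 stood at 35.0 to 69.8 CPM in Cpt2PparaDKO, against 135, 69.9, 93.2 and 77.3 CPM in Cpt2KO livers, just without overlap, as did 22.6% of all tested genes. Both calls depended on single libraries. Per2 did not pass without Cpt2PparaDKO replicate 2 (adjusted p = 0.0562), 3 (0.0817) or 4 (0.0576) or without Cpt2KO replicate 2 (0.0693) or 3 (0.102), and Bhlhe40 did not pass without Cpt2PparaDKO replicate 2 (0.0734), 3 (0.119) or 4 (0.0641) or without Cpt2KO replicate 1 (0.144) or 3 (0.0637). Without both female-pattern libraries neither passed, with log2 fold changes of -0.67 for Per2 (adjusted p = 0.154) and -0.79 for Bhlhe40 (adjusted p = 0.0921). Of the markers, 1 of 6 hepatocyte genes rose and 2 fell in this comparison. In addition 3 of 6 stellate and matrix, 1 of 7 macrophage and 1 of 2 tested neutrophil genes rose. The part of the markers in this comparison was not tested.

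Other clock genes in this comparison turned on single Cpt2KO libraries. Per1 stood at 64.3, 66.2, 47.3 and 97.0 CPM in Cpt2PparaDKO, against 110, 134, 154 and 41.8 CPM in Cpt2KO livers, with a log2 fold change of -0.68 (edgeR adjusted p = 0.157). Without Cpt2KO replicate 4, the library at 41.8 CPM, it was -0.95 (adjusted p = 0.0175). Nr1d1 stood at 111, 112, 105 and 83.05 CPM in Cpt2PparaDKO, against 141, 49.9, 44.7 and 80.2 CPM in Cpt2KO livers, and it passed as higher without Cpt2KO replicate 1 (log2 fold change 0.82, adjusted p = 0.0488). Per3 averaged 23.4 ± 10.8 CPM in Cpt2PparaDKO and 39.7 ± 11.4 CPM in Cpt2KO livers and did not pass (log2 fold change -0.76 ± 0.43, edgeR adjusted p = 0.214).

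Of the 9 tested clock genes, 1 passed in Cpt1DKO against Control livers. Bhlhe40 stood at 26.6, 52.1, 53.1 and 38.5 CPM in Cpt1DKO, against 86.3, 89.1, 113 and 124 CPM in Control livers, and the highest Cpt1DKO library lay well under the lowest Control library. The log2 fold change was -1.28 ± 0.27 (SE, edgeR adjusted p = 0.00952), and the gene passed in every alternative fit and with each library left out in turn, with adjusted p up to 0.0415. That is 1 of 9 genes, 11.1%, against 3.1% of all tested genes lower and 5.55% in either direction. Median log2 fold changes were -0.14 over the clock genes and -0.01 over all tested genes. Markers moved in the same comparison: 1 of 6 hepatocyte markers fell, Serpina1a (edgeR adjusted p = 0.0225), with summed levels of 78295 to 86453 CPM in Cpt1DKO against 82897 to 103348 CPM in Control livers. Of 6 stellate and matrix markers Dcn rose (adjusted p = 0.0297), with summed levels of 226 to 278 CPM in Cpt1DKO against 175 to 208 CPM in Control livers, and of 6 endothelial markers Pecam1 rose (adjusted p = 0.0359), with summed levels of 274 to 355 CPM in Cpt1DKO against 162 to 354 CPM in Control livers. The part of these markers in the Bhlhe40 result was not tested.

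Per3 averaged 33.1 ± 23.1 CPM in Cpt1DKO against 69.3 ± 19.4 CPM in Control livers. Its Cpt1DKO libraries stood at 12.6, 20.2, 65.0 and 34.7 CPM, so that replicate 3 lay within the Control range and the others below it. The log2 fold change was -1.07 ± 0.43 (SE, edgeR adjusted p = 0.158) with all libraries and -1.62 (adjusted p = 0.0220) without Cpt1DKO replicate 3. Nr1d1 did not overlap between the groups, at 99.6 to 130 CPM in Cpt1DKO against 72.0 to 93.7 CPM in Control livers, but its adjusted p was 0.596. With Bhlhe40 that made 2 of 9 genes without overlap, against 16.9% of all tested genes.

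Bhlhe40 also separated Cpt1DKO livers from Cpt2KO and TKO livers. It rose in Cpt2KO against Cpt1DKO livers by 1.14 ± 0.27 (log2, SE, edgeR adjusted p = 0.00906) and in TKO against Cpt1DKO livers by 1.09 ± 0.27 (log2, SE, edgeR adjusted p = 0.0260). The TKO libraries stood at 56.5, 91.8, 90.5 and 124 CPM, all above the Cpt1DKO libraries at 26.6 to 53.1 CPM. Cpt2PparaDKO livers, which also lacked Cpt2, were not tested against Cpt1DKO livers. Their Bhlhe40 libraries, at 35.0 to 69.8 CPM, overlapped with the Cpt1DKO libraries. The comparisons of Cpt2KO and of TKO with Cpt1DKO livers share the Cpt1DKO libraries. In each, Bhlhe40 was the single clock gene of 9 that passed. The background in Cpt2KO against Cpt1DKO was 7.41% of all tested genes higher and 14.1% changed in either direction, and in TKO against Cpt1DKO it was 2.6% higher and 4.65% in either direction. It was also the single one without overlap, against 15.9% of all tested genes in the first comparison and 13.9% in the second. In TKO against Cpt1DKO it missed the threshold without TKO replicate 3 (adjusted p = 0.0520) or 4 (0.0765), without Cpt1DKO replicate 1 (0.0781) or 4 (0.0849), and with no filter on low counts (0.0658). Markers also moved. In Cpt2KO against Cpt1DKO livers 1 of 6 hepatocyte, 1 of 6 endothelial, 1 of 6 stellate and matrix and 1 of 4 cholangiocyte genes fell. In the same comparison 1 of 7 macrophage genes rose. In TKO against Cpt1DKO livers 3 of 6 hepatocyte and 1 of 4 cholangiocyte genes fell and 1 of 7 macrophage genes rose. The part of these markers in the Bhlhe40 results was not tested.

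Bhlhe40 was lower than in Control livers after loss of Cpt1a and Cpt1b, and no such difference passed when Cpt2 was lost as well. Bhlhe40 averaged 90.8 ± 27.6 CPM in TKO, 93.7 ± 28.9 CPM in Cpt2KO and 42.6 ± 12.6 CPM in Cpt1DKO livers, against 103 ± 18.3 CPM in Control livers. The interaction of Cpt1 and Cpt2 loss, the change in TKO against Cpt1DKO less that in Cpt2KO against Control livers, was 1.23 ± 0.37 (log2, SE, edgeR adjusted p = 0.0830), and it passed by DESeq2's Wald test (adjusted p = 0.0251), without TKO replicate 1 (0.0463) and without Cpt2KO replicate 1 (0.0338). None of the 9 clock genes passed the interaction by edgeR, against 2.7% of all tested genes. An unadjusted p under 0.05 was found for 1, against 18.4% of all tested genes, and DESeq2 called 1.

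None of the 9 clock genes passed in Cpt2KO or TKO livers against Control livers, although many other genes did. By edgeR 0 of 9 passed in Cpt2KO, against 33.4% of all tested genes, and 1 had an unadjusted p under 0.05, against 42.5%. In TKO 0 of 9 passed, against 27.4% of all tested genes, again with 1 under an unadjusted 0.05, against 38%. DESeq2's Wald test called 1 in TKO, Per3 (adjusted p = 0.0275), and none in Cpt2KO livers. Median log2 fold changes over the 9 genes were -0.14 in Cpt2KO and -0.38 in TKO livers, against -0.01 over all tested genes in both.

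Clock was the gene nearest to a change in Cpt2KO livers. It stood at 50.5, 24.2, 53.5 and 50.4 CPM in Cpt2KO, against 65.8, 61.6, 57.1 and 56.7 CPM in Control livers, without overlap (1 of 9 genes, against 30.9% of all tested genes). The log2 fold change was -0.43 ± 0.18 (SE, edgeR adjusted p = 0.0721). Replicate 2, the library at 24.2 CPM, carried much of it: without that library the log2 fold change was -0.23 (adjusted p = 0.228). Without both female-pattern libraries it was -0.52 (adjusted p = 0.0413). Against Cpt1DKO livers, at 75.2, 73.4, 48.1 and 62.5 CPM, Clock in Cpt2KO livers was lower by a log2 fold change of -0.54 ± 0.18 that did not pass (SE, edgeR adjusted p = 0.0521). It passed there by DESeq2 (adjusted p = 0.0402), without Cpt2KO replicate 3 (0.0375), without Cpt1DKO replicate 3 (0.0279) and without both female-pattern libraries (0.0273). Cry1 in Cpt2KO livers averaged 7.29 ± 3.50 CPM, and it passed against Control livers only with sex as a term in the fit (log2 fold change -1.11, adjusted p = 0.0456).

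In TKO livers Per3 stood at 25.5, 44.3, 35.6 and 29.8 CPM, all below the lowest Control library at 49.98 CPM. The log2 fold change was -1.04 ± 0.43 (SE, edgeR adjusted p = 0.0827), and it passed when the fit held only these 2 groups (adjusted p = 0.00641). Per3 was the single clock gene without overlap in that comparison, against 33.3% of all tested genes. In Cpt2KO livers Per3 stood at 47.5, 35.1, 50.5 and 25.8 CPM, with a log2 fold change of -0.80 ± 0.43 (SE, edgeR adjusted p = 0.164), and it passed in the fit of Cpt2KO and Control livers only (adjusted p = 0.0302). Mean Per3 was thus under the Control mean of 69.3 CPM in all 4 mutant groups, which were all set against the same 4 Control libraries, and it passed the main test only in Cpt2PparaDKO livers. Per2 means were likewise 22.4 ± 3.73 CPM in Cpt2PparaDKO, 43.4 ± 9.03 CPM in TKO, 42.9 ± 17.7 CPM in Cpt2KO and 41.1 ± 13.9 CPM in Cpt1DKO, against 58.1 ± 16.6 CPM in Control livers.

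None of the 9 passed between TKO and Cpt2KO livers by edgeR, against 0.0511% of all tested genes called between them, and none of the 9 was without overlap, against 4.79% of all tested genes. Clock alone had an unadjusted p under 0.05 (log2 fold change 0.41 in TKO against Cpt2KO, adjusted p = 0.442), against 10.8% of all tested genes. DESeq2 called none of the 9. Cry1 shows how wide the spread was: it stood at 5.15, 17.7, 7.37 and 2.88 CPM in TKO libraries, its lowest and highest values of all 20. Nr1d1 was similarly wide, at 45.9, 37.3, 67.0 and 114 CPM in TKO livers, while in Cpt1DKO livers it stayed between 99.6 and 130 CPM. The log2 fold change of Nr1d1 in TKO against Cpt1DKO livers, -0.72, did not pass (edgeR adjusted p = 0.230), nor did that of Nr1d2, 0.31 (adjusted p = 0.241).

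Npas2, which can stand in for CLOCK, was detected in every library at a level too low for the main test. It had 9, 3, 3 and 19 counts in Cpt2PparaDKO, 6, 2, 10 and 4 counts in TKO, 1, 7, 9 and 3 counts in Cpt2KO, 8, 11, 4 and 7 counts in Cpt1DKO, and 4, 6, 2 and 1 counts in Control libraries. All groups overlapped in counts. In a fit of the 31344 genes with any count, its log2 fold change in Cpt1DKO against Control livers was 1.27 ± 0.70 (SE, edgeR adjusted p = 0.470), and it passed in no comparison.

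Within groups, Per2 varied together with Per1 and with Per3 from library to library. For each gene the log2 CPM was expressed as a deviation from its group's mean, and Pearson's r and Spearman's rho were computed over the 20 libraries for all 36 pairs of the 9 tested genes, with permutation of libraries within groups (100000 draws) and Benjamini-Hochberg adjustment over the 36 pairs. Per1 and Per2 had r = 0.878 and rho = 0.877 (permutation p = 3e-05 for r and 4e-05 for rho, adjusted p = 0.00108 and 0.00144). Without the 2 libraries farthest from the median of Per1, Cpt2KO replicate 4 and Control replicate 4, r was 0.822. Per2 and Per3 had r = 0.694 and rho = 0.705 (permutation p = 0.00151 and 0.00233, adjusted p = 0.0272 and 0.0419), and r = 0.582 without the 2 libraries farthest for Per2. These were the 2 pairs that passed, both positive. The remaining pair of period genes, Per1 and Per3, did not pass (r = 0.464, rho = 0.502, adjusted p = 0.128 and 0.116). Of all 36 pairs 23 were positive and 13 negative. Per3 with Dbp (r = 0.722, adjusted p = 0.0657), Nr1d2 with Bhlhe40 (r = 0.638, adjusted p = 0.0657) and Cry1 with Nr1d1 (r = -0.704, adjusted p = 0.0657) did not pass.

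**Figure D3:**
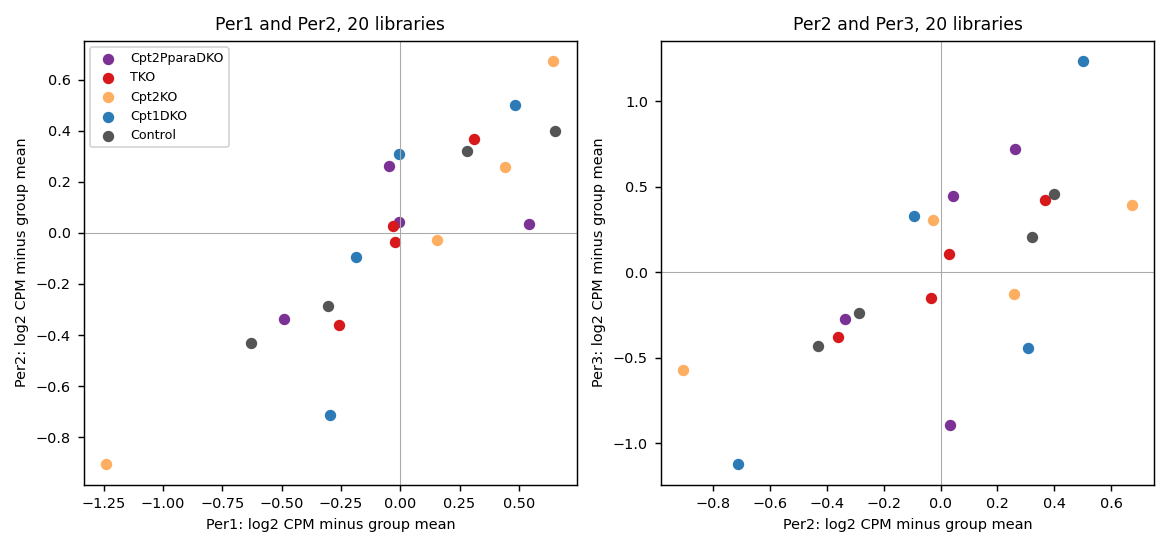
Deviation of each library from its group mean in log2 CPM for Per1 against Per2 (left) and Per2 against Per3 (right); each point is 1 of 20 libraries, coloured by group. Libraries high in Per1 were high in Per2 (r = 0.878), and Per2 and Per3 were more loosely related (r = 0.694).

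Single libraries stood apart in several clock genes at once. Cpt1DKO replicate 3 was the highest of its group for Per3 (65.0 CPM), Dbp (111 CPM), Per1 (147 CPM), Per2 (55.5 CPM) and Cry1 (14.6 CPM), and the lowest for Clock (48.1 CPM). Cpt2KO replicate 4 was the lowest of its group for Per1, Per2 and Per3. Of the female-pattern libraries, Cpt2PparaDKO replicate 4 was the lowest of its group for Dbp (21.1 CPM), Nr1d1 and Nr1d2, and the highest for Cry1 (10.7 CPM) and Per1. Cpt2KO replicate 3 was the lowest of its group for Dbp (42.5 CPM), Nr1d1 and Nr1d2, and the highest for Cry1 (12.3 CPM), Per1 and Per2. These 2 libraries went opposite ways in Per3 and Clock, each gene lowest of the group in Cpt2PparaDKO replicate 4 (deviations of -0.89 for Per3 and -0.19 for Clock on the log2 scale) and highest of the group in Cpt2KO replicate 3 (0.39 for Per3 and 0.33 for Clock). The part of sex in these values was not tested apart from the fits given above. The labels name no batch and no collection hour for any library.

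**Figure D4:**
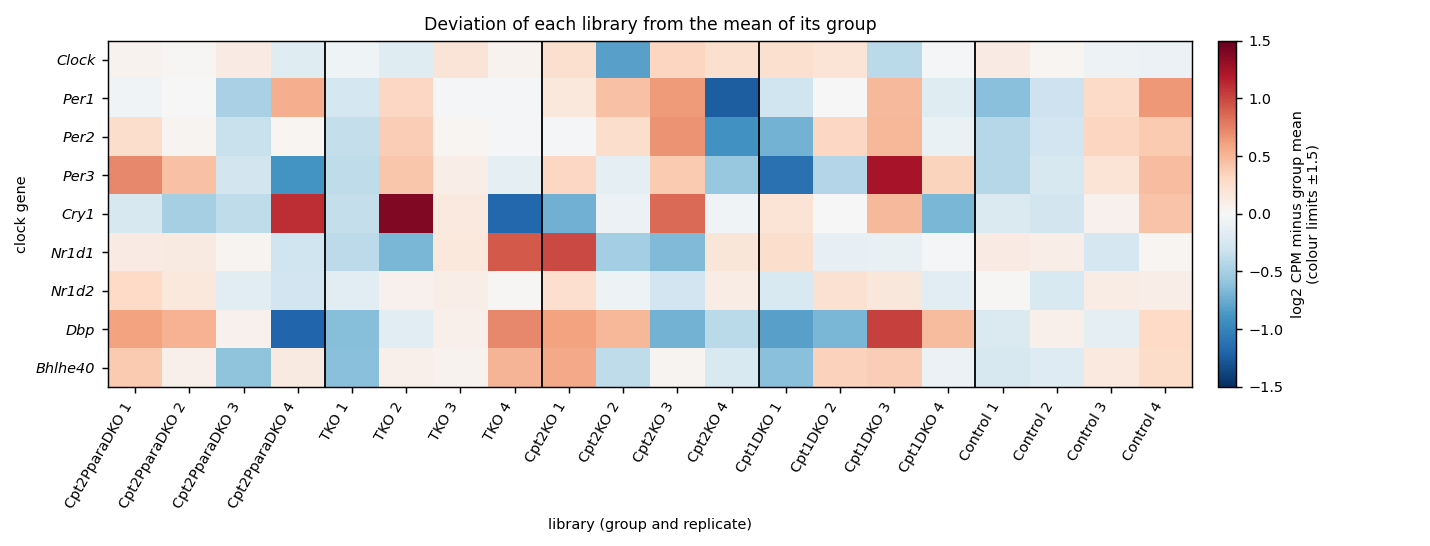
Log2 CPM of the 9 tested clock genes (rows) as deviation from the mean of each library's group, for the 20 libraries (columns, by group and replicate); red is above and blue below the group mean, with colours limited at ±1.5. Per1 and Per2 share their colours in most libraries, and Dbp and Per3 are both strongly red in Cpt1DKO replicate 3.

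Dbp, the D-box activator and among the most rhythmic liver transcripts, had its closest companions outside the clock. Of the 9504 other protein-coding genes that averaged 5 CPM or more, 4 of the 5 with the highest Pearson r to Dbp over the 20 within-group deviations were Dclre1a (0.917), Auh (0.906), Hdac11 (0.901) and Txnrd2 (0.891). Dclre1a encodes a DNA crosslink repair nuclease, Auh a mitochondrial enzyme of leucine breakdown, Hdac11 a histone deacetylase and Txnrd2 the mitochondrial thioredoxin reductase. These are the highest of many correlations and are given as a description.

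A list of 14 other clock genes, all of which passed the filter, was read beside the 9. In Cpt2PparaDKO against Control livers 2 rose and 4 fell, which is 6 of 14 called against 32.5% of all tested genes. Arntl, which encodes BMAL1, averaged 9.02 ± 2.41 CPM in Cpt2PparaDKO against 3.89 ± 1.99 CPM in Control livers (log2 fold change 1.20 ± 0.38, edgeR adjusted p = 0.0188), though it missed the threshold without Control replicate 3 (adjusted p = 0.0567) or 4 (0.0594). Ciart, encoding the repressor CHRONO, averaged 7.19 ± 2.73 CPM in Cpt2PparaDKO against 53.1 ± 19.3 CPM in Control livers (log2 fold change -2.88, edgeR adjusted p = 1.76e-04). The D-box activators Hlf (log2 fold change -1.83) and Tef (-1.10) and the cryptochrome Cry2 (-0.55) also fell. Csnk1e, a kinase of PER proteins, rose by 0.71 on the log2 scale. The median log2 fold change was -0.22 over the 14 genes.

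The same list was set against Control livers in the other groups. In Cpt2KO livers 1 rose and 6 fell (7 of 14 called, against 33.4% of all tested genes), with a median log2 fold change of -0.51. In TKO livers 2 rose and 5 fell (7 of 14, against 27.4%), with a median of -0.48. Hepatocyte markers moved in both, with 3 of 6 lower in TKO (summed levels of 38925 to 69438 CPM) and 4 of 6 lower in Cpt2KO (47136 to 74717 CPM) against 82897 to 103348 CPM in Control livers. Of 7 macrophage markers 1 rose and 1 fell in TKO and 1 rose in Cpt2KO livers. In Cpt2KO livers 1 of 6 stellate and matrix markers rose, and 1 of 4 cholangiocyte markers fell in each group. The part of these markers was not tested. In Cpt1DKO livers 1 rose and 0 fell by edgeR (1 of 14, against 5.55%), with a median of -0.25. There 6 of the 14 had an unadjusted p under 0.05, against 21.3% of all tested genes, and DESeq2 called 2, Csnk1e and Hlf. Nfil3, encoding the D-box repressor E4BP4, averaged 6.65 ± 3.11 CPM in TKO and 6.70 ± 1.59 CPM in Cpt2KO livers against 17.7 ± 4.04 CPM in Control livers, log2 fold changes of -1.42 in TKO (edgeR adjusted p = 0.00164) and -1.40 in Cpt2KO (adjusted p = 0.00138). Hlf fell by 1.18 in TKO and 1.19 in Cpt2KO and Tef by 0.70 in TKO and 0.68 in Cpt2KO livers on the log2 scale. Btrc, which encodes a ubiquitin ligase subunit for PER proteins, fell by 0.60 in TKO and 0.66 in Cpt2KO livers, and Ciart fell by 1.74 in Cpt2KO livers, on the same scale. Csnk1e rose in every mutant group, with log2 fold changes of 0.85 in TKO, 1.04 in Cpt2KO and 0.60 in Cpt1DKO livers. The Cpt1DKO value missed the threshold without Cpt1DKO replicate 2 (adjusted p = 0.129) or Control replicate 2 (0.0537), 3 (0.0648) or 4 (0.0682).

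Weaker calls on that list depended on single libraries. Cry2 fell by 0.54 in Cpt2KO (edgeR adjusted p = 0.00889) and by 0.45 in TKO livers (0.0309), and the TKO call was lost without TKO replicate 1 (0.0900), 3 (0.0945) or 4 (0.115) or Control replicate 2 (0.0848), 3 (0.0714) or 4 (0.0559), and with no filter on low counts (0.0647). Csnk1d, another kinase of PER proteins, rose by 0.38 in TKO livers (edgeR adjusted p = 0.0289), a call lost without TKO replicate 1 (0.0634) or 2 (0.0889) or Control replicate 1 (0.0632), 2 (0.0690) or 4 (0.0503).

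Among mutant groups, calls on the list came in the comparison of Cpt2PparaDKO with Cpt2KO livers, which differ in Cpt2 RNA level as well as in Ppara. In Cpt2PparaDKO against Cpt2KO livers 4 rose and 1 fell by edgeR (5 of 14 called, against 24.4% of all tested genes). Of the 14, 11 had an unadjusted p under 0.05, against 35.7% of all tested genes. DESeq2 called 8, adding Ciart, Hlf and Fbxl21. Arntl (log2 fold change 1.48), Nfil3 (1.04), Rora (0.68), encoding the activating receptor RORα, and Btrc (0.56) were the 4 that rose, and Csnk1d (-0.38) fell. Btrc missed the threshold without Cpt2KO replicate 2 (adjusted p = 0.0583), and Csnk1d without Cpt2PparaDKO replicate 1 (0.0714), 2 (0.0777) or 3 (0.125) or Cpt2KO replicate 3 (0.0563) or 4 (0.0813), with no filter (0.0991) and with only these groups in the fit (0.101). By edgeR 0 of 14 passed in Cpt2KO against Cpt1DKO livers, against 14.1% of all tested genes. There 2 had an unadjusted p under 0.05, against 28.7% of all tested genes, and DESeq2 called 1, Csnk1e. In TKO against Cpt1DKO livers 0 passed (background 4.65%), and in TKO against Cpt2KO livers 0 passed (background 0.0511%). In each, 1 had an unadjusted p under 0.05, against 20% and 10.8% of all tested genes, and DESeq2 called 0. With so few genes called between TKO and Cpt2KO livers, the 0 there does not set the listed genes apart. In the interaction 1 of 14 passed by edgeR, Csnk1e (-0.79, adjusted p = 0.0491), against 2.7% of all tested genes. DESeq2 called 2, Csnk1e and Ciart. With all libraries kept, Csnk1e missed the threshold with no filter (adjusted p = 0.0726), with the replicate block (0.0558) and with sex as a term (0.0632), and it also missed the threshold without TKO, Cpt2KO or Control replicate 2, 3 or 4 or Cpt1DKO replicate 1, 2 or 4, at adjusted p up to 0.102.

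**Figure D5:**
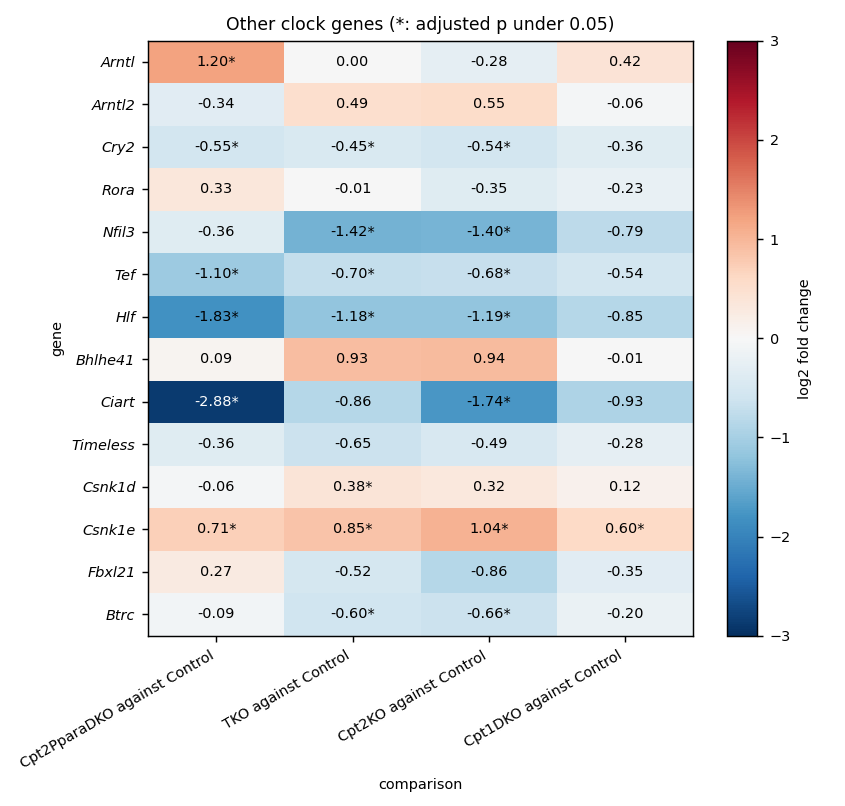
Log2 fold change of 14 other clock genes (rows) in each mutant group against Control (columns), from edgeR's fit over all 20 libraries; numbers are the log2 fold changes, and asterisks mark an adjusted p under 0.05. Arntl is red in Cpt2PparaDKO (1.20), Ciart is the deepest blue (-2.88), and Csnk1e carries an asterisk in every column.

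Genes that the liver clock drives were read from a list of 14. Against Control livers, 7 fell in Cpt2PparaDKO (7 of 14 called, against 32.5% of all tested genes; median log2 fold change -1.05), 3 fell and 1 rose in TKO (4 of 14, against 27.4%; -0.16), 3 fell and 2 rose in Cpt2KO (5 of 14, against 33.4%; -0.10), and 1 fell in Cpt1DKO livers (1 of 14, against 5.55%; -0.42). The single Cpt1DKO call, Nampt (edgeR adjusted p = 0.0382), was lost in 5 of 8 fits that left out 1 library, and Usp2 in TKO (adjusted p = 0.0401) in 7 of 8 such fits. The Usp2 call in TKO was also lost without both female-pattern libraries (edgeR adjusted p = 0.0529). Usp2, a rhythmic deubiquitinase, averaged 14.1 ± 4.77 CPM in Cpt2PparaDKO against 103 ± 26.4 CPM in Control livers (log2 fold change -2.86, edgeR adjusted p = 3.34e-04), and Coq10b, a coenzyme Q binding protein, 18.7 ± 4.82 CPM in Cpt2PparaDKO against 55.5 ± 14.4 CPM in Control livers (-1.57, adjusted p = 3.32e-04). Nampt, the rate-limiting enzyme of NAD salvage, averaged 55.4 ± 5.84 CPM in Cpt2PparaDKO against 120 ± 22.9 CPM in Control livers (-1.11, adjusted p = 2.59e-05). Cyp7a1, which catalyses the first and limiting step from cholesterol to bile acids, averaged 38.0 ± 9.66 CPM in Cpt2PparaDKO, 17.0 ± 11 CPM in TKO and 15 ± 7.48 CPM in Cpt2KO livers, against 179 ± 17.4 CPM in Control livers. Its log2 fold change was -2.23 in Cpt2PparaDKO, -3.39 in TKO and -3.58 in Cpt2KO livers.

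Signals that can reset the Per genes or Bhlhe40 were read from their own marker genes. Of 9 genes induced by glucocorticoids, which act on Per1 and Per2, 2 rose and 2 fell in Cpt2PparaDKO, 2 rose and 2 fell in TKO, 1 rose and 2 fell in Cpt2KO, and 1 rose in Cpt1DKO livers, each against Control livers. Of the 9, 4 were thus called in Cpt2PparaDKO (against 32.5% of all tested genes), 4 in TKO (27.4%), 3 in Cpt2KO (33.4%) and 1 in Cpt1DKO livers (5.55%). The Cpt1DKO call, Cdkn1a (edgeR adjusted p = 0.0451), was lost in 7 of 8 fits that left out 1 library and in 3 of 7 other fits, and its call in Cpt2PparaDKO (adjusted p = 0.0288) in 4 of 8 and 4 of 7. Tsc22d3, a glucocorticoid-induced leucine zipper gene, averaged 48.0 ± 14.4 CPM in Cpt2PparaDKO, 54.1 ± 21.3 CPM in TKO and 35.8 ± 16.2 CPM in Cpt2KO livers, against 159 ± 91.4 CPM in Control livers, and it passed in each (edgeR adjusted p = 0.00311 in Cpt2PparaDKO, 0.00714 in TKO and 5.75e-04 in Cpt2KO). Sgk1, a hormone-induced kinase, rose in Cpt2PparaDKO livers instead (89.4 ± 30.7 CPM against 30.8 ± 3.80 CPM in Control livers, adjusted p = 5.80e-04). Of 7 tested genes induced by hypoxia, which acts on Bhlhe40, 1 rose and 3 fell in Cpt2PparaDKO, 1 fell in TKO and 2 fell in Cpt2KO livers. In Cpt1DKO livers 0 passed by edgeR and 3 had an unadjusted p under 0.05, against 21.3% of all tested genes. DESeq2 called 1 there, Vegfa. Each group was set against Control livers, beside the same background shares. Vegfa, the angiogenic factor, averaged 134 ± 29.4 CPM in Cpt2PparaDKO, 170.0 ± 14.4 CPM in TKO, 172 ± 25.0 CPM in Cpt2KO and 162 ± 22.2 CPM in Cpt1DKO livers, against 229 ± 10.02 CPM in Control livers. It passed in Cpt2PparaDKO (log2 fold change -0.77, edgeR adjusted p = 4.99e-04), TKO (-0.43, 0.0363) and Cpt2KO livers (-0.41, 0.0361). In Cpt1DKO livers it narrowly missed the edgeR threshold (-0.50, 0.0514) and passed by DESeq2. The TKO call was lost in 7 of 8 fits that left out 1 library and the Cpt2KO call in 6 of 8. In Cpt2PparaDKO livers Pfkfb3, a regulator of glycolysis (log2 fold change -1.49, edgeR adjusted p = 0.0198), was lost in 3 of 8 such fits, and Bnip3, a mitophagy receptor (-0.75, 0.0214), in 2 of 8. The part of either signal in the clock-gene results was not tested.

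Positions in the files are on GRCm39. Per2 (ENSMUSG00000055866) lies on chr1:91343704-91387046 and Per3 (ENSMUSG00000028957) on chr4:151088109-151129122, both on the minus strand, and Bhlhe40 (ENSMUSG00000030103) on chr6:108637590-108643886 on the plus strand. The Per3 gene lies inside the span of Camta1 on the same strand, where Camta1 had at most 191 counts and Per3 at least 190 in any library. Dbp shares 737 bases with Sphk2 and Nr1d1 shares 1075 bases with Thra, each on opposite strands, and whether the counting used strand is not stated, so reads in those bases could belong to either gene. Per1, Per2, Cry1 and Nr1d2 overlapped no other annotated gene.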

How the data were processed

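Liver RNA was extracted with TRIzol and RNeasy columns per the labels' protocols, and the submitters' processing notes name HISAT2 and the builds GRCm39 and mm39. No source used here names the program that counted reads, whether it used strand, or the release of the gene models. The authors deposited raw counts per gene and FPKM (per length and scaled library size) for 20 libraries. FPKM served only to compare levels between genes, and the deposited comparison tables were not used here.

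Counts were scaled by TMM (factors 0.841 to 1.29) and tested with edgeR 4.0.16 (R 4.3.3; quasi-likelihood F test, robust, group only, all 20 libraries in 1 fit) after filterByExpr with a minimum count of 10, which left 15669 genes. P-values were adjusted by Benjamini-Hochberg over these genes, and a call is an adjusted p under 0.05. CPM are TMM-scaled, and an SE is the fold change divided by the root of F. Total counts of 14129595 to 36452673 set the precision, and the counts of replicates differed by more than sampling noise (chi-square over degrees of freedom 11.5 to 150.9). The highest values, 122.7, 129.7 and 150.9, were those of the pairs that held Cpt2PparaDKO replicate 4. The fit was tested on simulated data.

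Alternatives were DESeq2 1.42.0 (size factors and its Wald test), no filter, only the groups compared, a replicate block, sex as a term, leaving out both female-pattern libraries and leaving out each library.

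The members, the gene lists and the tests were chosen with earlier results of these data known. Named were all 10 members, every gene of the list of other clock genes called in some comparison, and up to 4 genes per further list by smallest adjusted p against Control. Likeness was planned for Dbp and Npas2 and is not given for Npas2, which did not pass the filter. A few genes that these rules would name are not reported here, and the list of other clock genes and its counts leave them out.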

Additional observations from a re-analysis of the deposited data

Results flagged for a closer look

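In 3 of 50 gene and group combinations examined for the 10 clock genes, 1 library stood apart from the other 3, where chance alone gives about 1 in 20. Cry1 in Cpt2PparaDKO replicate 4 stood at 10.7 CPM, while the other 3 libraries of that group lay at 3.43 to 4.14 CPM. Npas2 in the same library stood at 0.737 CPM (19 counts), with the others at 0.134 to 0.212 CPM. Clock in Cpt2KO replicate 2 stood at 24.2 CPM, with the others at 50.4 to 53.5 CPM.

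The effect of Cpt2 loss on Csnk1e differed between livers without and with Cpt1a and Cpt1b, with an interaction of -0.795 on the log2 scale (edgeR adjusted p = 0.0491). The Cpt1DKO and Cpt2KO means of 13.4 and 18.1 CPM and the TKO mean of 15.9 CPM stood against 8.8 CPM in Control livers. It missed the threshold in 12 of 16 fits that left out 1 library and, with all libraries kept, with no filter on low counts (adjusted p = 0.0726), with the replicate block (0.0558) and with sex as a term (0.0632).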

How the results depend on the processing

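For the 9 tested clock genes, the 21 fold changes with an unadjusted p under 0.1 kept their direction in all alternatives run, as did the called fold changes of the genes named from the lists. The calls of Bhlhe40 in Cpt1DKO and of Per2 and Per3 in Cpt2PparaDKO against Control also held in all of them. Of the 9 genes, the number called against Control in Cpt2PparaDKO livers was 2 with no filter (without Bhlhe40) and 4 (with Cry1) by DESeq2, without both female-pattern libraries and when sex was a term, against 3. It moved to 1 in Cpt2KO livers with only the groups compared (Per3), with sex as a term (Cry1) and without both female-pattern libraries (Clock), and to 1 in TKO livers by DESeq2's Wald test and with only the groups compared (Per3 in both). In Cpt2KO against Cpt1DKO it moved to 2 by DESeq2 and without both female-pattern libraries, and in TKO against Cpt1DKO to 0 with no filter. In Cpt2PparaDKO against Cpt2KO it moved to 0 with no filter and without both female-pattern libraries, and to 1 with only the groups compared and with the replicate block. In the interaction it moved to 1 by DESeq2.

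Leaving out each library in turn gave 1 to 2 clock genes in Cpt1DKO, 0 to 0 in Cpt2KO, 0 to 0 in TKO and 3 to 4 in Cpt2PparaDKO against Control, 1 to 2 in Cpt2KO and 0 to 1 in TKO against Cpt1DKO, 0 to 0 in TKO and 0 to 3 in Cpt2PparaDKO against Cpt2KO, and 0 to 1 in the interaction. Nr1d1 joined in Cpt2KO against Cpt1DKO without Cpt2KO replicate 1 (log2 fold change -0.90, adjusted p = 0.0458). The labels do not say that a replicate number marks a shared litter or day, and over 32 pairs of same-numbered libraries correlations of deviations were -0.153 to 0.233, with 2 over 0.1, so the numbers were not taken as pairs. With the replicate block the calls of Bhlhe40 in Cpt2PparaDKO against Cpt2KO (adjusted p = 0.0638) and of Csnk1e in the interaction (0.0558) were lost, no other call of a clock gene was lost, and none of the 9 genes gained one. Cdkn1a was lost in Cpt2PparaDKO (0.0609) and Cpt1DKO (0.0822) against Control.

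The background counts moved too. Against Control, 869 genes called in Cpt1DKO became 1443 by DESeq2, 1442 with only the groups compared, 1581 without both female-pattern libraries, and 288, 309, 473, 470 and 481 without Cpt1DKO replicate 1 or 2 or Control replicate 2, 3 or 4. In Cpt2KO against Cpt1DKO 2212 became 1344 with only the groups compared and 1192, 1435 and 1337 without Cpt2KO replicate 2 or Cpt1DKO replicate 1 or 4. In TKO against Cpt1DKO 729 became 1266 by DESeq2, 1391 without both female-pattern libraries, and 278, 465, 438, 379, 329 and 288 without TKO replicate 1, 3 or 4 or Cpt1DKO replicate 1, 3 or 4. In TKO against Cpt2KO 8 became 54 by DESeq2, 16 without both female-pattern libraries, 5 with only the groups compared and with the block, and 3 to 5 without TKO replicate 2, 3 or 4 or Cpt2KO replicate 1, 2 or 4. In Cpt2PparaDKO against Cpt2KO 3822 became 2495 with only the groups compared, and in the interaction 423 became 941 by DESeq2 and 973 without both female-pattern libraries, and 178 to 281 without TKO replicate 2 or 3, Cpt2KO replicate 2, Cpt1DKO replicate 1 or 2 or any 1 Control library. The causes were not tested. Low counts limit Npas2.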
